A study of Homo sapiens with 3 samples.

Results

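The genes described here are the 4 fibroblast growth factor (FGF) receptors FGFR1, FGFR2, FGFR3 and FGFR4, the receptor-like FGFRL1, the co-receptor KLB, the ligand FGF2, the carrier FGFBP1 and the adaptor FRS2. These 9 genes of the 60554 in the deposited table were taken by symbol. The set was chosen by measured values of these libraries, because FGFR2 was lower with both shRNAs, so every difference between the lines is given for them as a description with no test. RNA was sequenced from 3 stable lines of KYSE30, a cell line from a human squamous carcinoma of the esophagus. One line carried the control of the pLKO.1-blast vector, and 2 lines carried different shRNAs against the small nucleolar RNA SNORD12B. The control's genotype label reads vector, while the protocol describes a scrambled shRNA. All 3 lines grew in RPMI-1640 with 10% serum, met lentivirus made in 293T cells for 24 hours and were selected for 2 weeks with 5 ug/mL blasticidin. Each line gave 1 library and no line had a replicate culture, so the spread between the pair of shRNA lines is that between different shRNAs.

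FGFs are secreted ligands that bind receptor tyrosine kinases together with heparan sulfate. The activated receptor phosphorylates FRS2, which recruits GRB2 and the phosphatase encoded by PTPN11 and starts RAS and MAP kinase signalling. Alternative splicing gives FGFR1, FGFR2 and FGFR3 an epithelial (IIIb) and a mesenchymal (IIIc) form with different ligand ranges, and stratified epithelia typically use the IIIb form of FGFR2 to receive FGF7 and FGF10 from the underlying stroma. Counts per gene do not separate these forms.

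Library totals lay between 15146805 and 17336936 counts. SNORD12B itself was counted 7 times in the control, 15 times with the label shRNA 1 and 1 time with the label shRNA 2. Divided by the control, these gave 2.16 (95% exact interval 0.831 to 6.28) and 0.126 (0.0028 to 0.982). The library labelled shRNA 1 thus showed no fall of SNORD12B, and its interval includes 1. So few reads of a short RNA do not settle whether SNORD12B was lower there, and each direction below rests in part on that library. Of 14 squamous epithelial markers, 13 passed the filter on low counts and 10 of these stood lower than the control with each shRNA, as did 27% of all 17801 tested genes. The markers summed to 2774 CPM (counts scaled to a common library size) in the control, 1706 CPM under the label shRNA 1 and 2488 CPM under shRNA 2. Values given as a run of 3 stand in the order control, label shRNA 1, label shRNA 2. TP63 and SOX2, transcription factors of the squamous basal layer, stood at 156.6 and 104.1 CPM in the control, whereas KRT5 had only 1 to 3 counts per library. Of the fibroblast markers, COL1A2, DCN, LUM, PDGFRA, POSTN and THY1 were at 0 in every library, and the 10 markers summed to between 9.47 and 16.01 CPM, nearly all from COL1A1. The endothelial markers KDR and TEK and the T cell marker CD3D were at 0 in every library as well, where 0 counts allow at most 0.198 CPM. The 8 endothelial markers summed to 4.82, 2.50 and 7.76 CPM and the 8 leukocyte markers to 19.5, 17.4 and 32.6 CPM, most of it from CSF1R.

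The upstream regions of FGFR2, FGFR3 and FGFBP1 are shown because these are the receptors with the widest gaps to the control and the most abundant member, whose level was at most 1.16-fold lower. They hold the 250 bases before the RefSeq start site nearest to the start of the counted gene, on GRCh38.p14, read 5′ to 3′ on the gene's strand, with every GGGCGG on either strand (the core of a GC box) in capitals.
FGFR2, chr10:121598445-121598694, minus strand: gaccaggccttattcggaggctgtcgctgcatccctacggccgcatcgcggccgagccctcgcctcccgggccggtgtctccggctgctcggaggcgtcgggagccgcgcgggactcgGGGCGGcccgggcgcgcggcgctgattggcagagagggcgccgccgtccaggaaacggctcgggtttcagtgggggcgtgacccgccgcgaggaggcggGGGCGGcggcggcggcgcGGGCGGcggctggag
FGFR3, chr4:1793043-1793292, plus strand: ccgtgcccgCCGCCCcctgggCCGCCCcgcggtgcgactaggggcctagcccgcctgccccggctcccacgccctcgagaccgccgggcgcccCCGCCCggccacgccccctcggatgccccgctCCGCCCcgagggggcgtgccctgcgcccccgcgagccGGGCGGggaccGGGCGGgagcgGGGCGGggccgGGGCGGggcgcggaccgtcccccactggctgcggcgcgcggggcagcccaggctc
FGFBP1, chr4:15938741-15938990, minus strand: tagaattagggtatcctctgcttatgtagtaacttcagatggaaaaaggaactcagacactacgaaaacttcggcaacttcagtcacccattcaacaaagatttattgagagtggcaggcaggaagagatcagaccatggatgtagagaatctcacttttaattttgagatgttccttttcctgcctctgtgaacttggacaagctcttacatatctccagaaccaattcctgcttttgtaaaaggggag
The FGFR2 region held 3 matches to GGGCGG and 42 CG dinucleotides, and the FGFR3 region held 8 matches and 40 CG dinucleotides. In the FGFBP1 region there were 0 matches and 2 CG dinucleotides. Among 35116 RefSeq promoter windows of this length, 42.6% held GGGCGG and the median number of CG dinucleotides was 11. FGFR2 has 5 start sites in that table, and the other 4 windows held between 3 and 7 CG dinucleotides. The AP-1 motif TGANTCA, searched on both strands, was in none of the windows of the 8 genes that had one, against 6.57% of all windows. These are matches of letters, and the counts do not tell which start site was used.

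FGFR2, a receptor tyrosine kinase of epithelia (ENSG00000066468.20, hg38 chromosome 10, 121478334 to 121598458, minus strand), was the member with the widest gap. It was counted 159 times in the control, 16 times with the label shRNA 1 and 32 times with the label shRNA 2. On the scaled CPM scale these are 10.4 CPM (95% exact Poisson interval 8.80 to 12.1), 1.05 CPM (0.601 to 1.71) and 1.84 CPM (1.26 to 2.60). FGFR2 was thus 9.84-fold lower with the label shRNA 1 and 5.63-fold lower with the label shRNA 2, and neither interval reaches that of the control. The ratio between the shRNA libraries was 0.572 (exact interval 0.293 to 1.07), an interval that includes 1. All intervals cover counting error only, and since these values chose the set, they support nothing beyond themselves. Fewer cells carrying a receptor and less receptor RNA per cell cannot be told apart in such bulk libraries.

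FGFR3, which acts in squamous epithelium and cartilage (ENSG00000068078.17, hg38 chromosome 4, 1793307 to 1808872, plus strand), was the most abundant of the 4 receptors per kilobase of exon in every library. Its counts were 1512, 563 and 1344, or 98.4 CPM in the control, 37.0 CPM with the label shRNA 1 and 77.3 CPM with the label shRNA 2. This is a ratio of 0.376 (0.341 to 0.415) for the first shRNA and of 0.785 (0.729 to 0.845) for the second, each divided by the control. Both libraries lay below the control, but the gap between them was itself 2.09-fold, which is wider than the gap between the control and the label shRNA 2. Mean and spread over the shRNA libraries were 57.1 ± 28.5 CPM (SD, n = 2).

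FGFR1, the receptor typical of mesenchymal cells (ENSG00000077782.19, hg38 chromosome 8, 38411138 to 38468834), was the only receptor kinase of the 4 above the control. It stood at 5.47 CPM in the control, 12.2 CPM with the label shRNA 1 and 6.50 CPM with the label shRNA 2, from 84, 186 and 113 counts. For the label shRNA 1 the ratio was 2.24 (1.72 to 2.93), while for the label shRNA 2 it was 1.19 (0.888 to 1.59), within counting error of the control. FGFR4, a receptor with a role in bile acid control in the liver (ENSG00000160867.14, hg38 chromosome 5, 177086886 to 177098144), had 68, 45 and 58 counts. That gives 4.43 CPM in the control and 2.96 and 3.33 CPM in the shRNA libraries, with a ratio of 0.668 (0.448 to 0.989) for the label shRNA 1 and of 0.753 (0.521 to 1.09), an interval that includes 1, for the label shRNA 2.

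**Figure D1:**
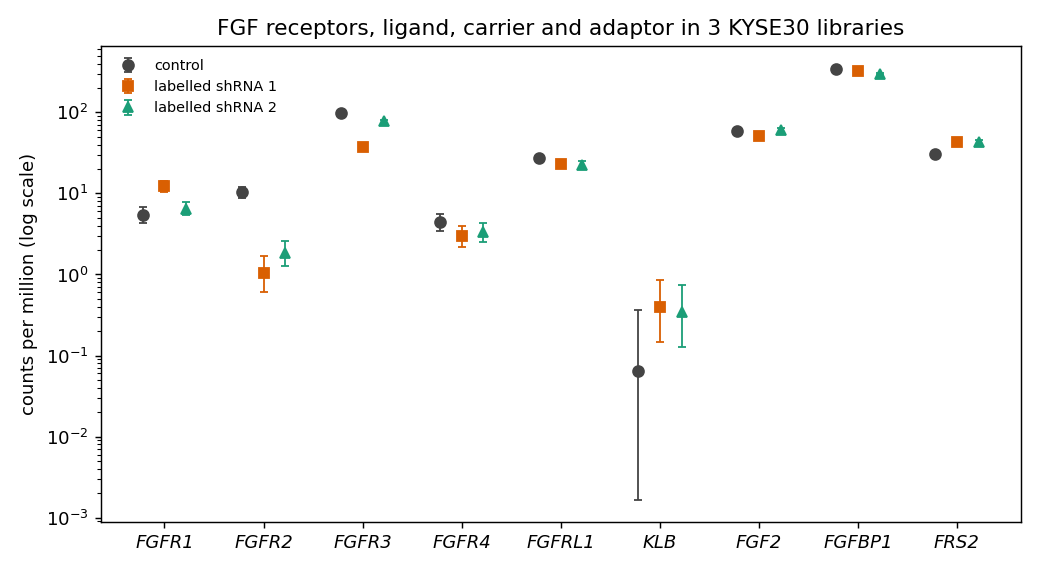
Level of each gene in the 3 libraries, in CPM on a log axis, with 1 point per library and bars for the 95% exact Poisson interval of its count. FGFR2 lies between 1.05 and 1.84 CPM in the shRNA libraries against 10.4 CPM in the control, FGFR1 is highest with the label shRNA 1, and FGFBP1 is the highest gene in CPM, at 298.6 to 347.6.

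The order of the receptors differed between the lines. Levels were divided by the kilobases of annotated exon, which makes different genes roughly comparable. The control had FGFR3 at 20.4, FGFR2 at 1.38, FGFR4 at 0.917 and FGFR1 at 0.431 CPM per kilobase. The counting intervals of these 4 levels did not overlap, but they leave out any error in the expressed length. With the label shRNA 1 the order was FGFR3 at 7.66, FGFR1 at 0.963, FGFR4 at 0.613 and FGFR2 at 0.141 CPM per kilobase. With the label shRNA 2 it was FGFR3 at 15.98, FGFR4 at 0.691, FGFR1 at 0.512 and FGFR2 at 0.246 CPM per kilobase, where the intervals of FGFR4 and FGFR1 overlapped. FGFR2 thus ranked behind FGFR3 alone in the control and last of the 4 in each shRNA library. Undivided counts put FGFR1 above FGFR4 in the control (84 against 68) and with the label shRNA 2 (113 against 58). The order of FGFR1 and FGFR4 there thus depends on the length used.

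Of the summed level per kilobase of the 4 receptors, FGFR3 made up 88.2% in the control, 81.7% under the label shRNA 1 and 91.7% under shRNA 2. FGFR2 made up 5.99%, 1.499% and 1.41% in the same order. FGFR1 took 1.86%, 10.3% and 2.93%. The ratio of FGFR1 to FGFR2 per kilobase went from 0.311 (exact interval 0.236 to 0.408) in the control to 6.85 (4.11 to 12.2) and 2.08 (1.40 to 3.19) with the labels shRNA 1 and shRNA 2, so which of the pair was higher switched in both. Summed over the 4 receptors, the level was 23.1 CPM per kilobase in the control and 40.6% and 75.5% of that with the labels shRNA 1 and shRNA 2, a difference that lies mostly in FGFR3. The annotated exons of FGFR1 add up to 12698 bases against 7486 for FGFR2, so a shorter expressed form of FGFR1 would raise its share. In undivided counts, FGFR1 was 4.61% of the 4 receptors in the control (exact binomial interval 3.69 to 5.67) and 23.0% (20.1 to 26.0) and 7.30% (6.06 to 8.72) in the shRNA libraries.

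**Figure D2:**
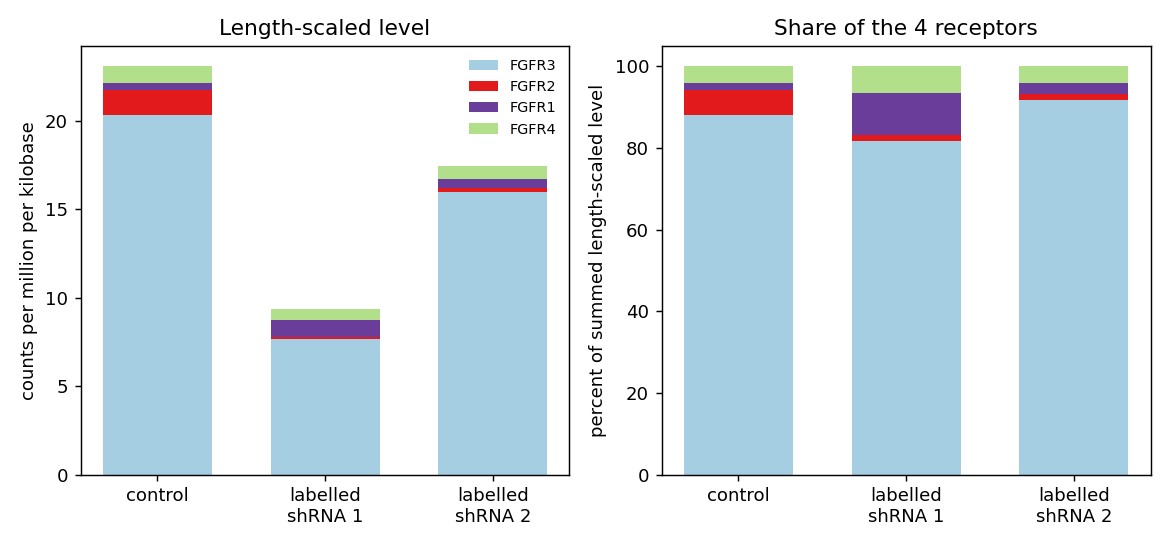
Stacked length-scaled levels of FGFR1, FGFR2, FGFR3 and FGFR4 per library in CPM per kilobase (left) and as percent of their sum (right), with 1 library per bar and no error shown. FGFR3 fills 88.2%, 81.7% and 91.7% of the bars, the FGFR2 segment shrinks from 5.99% to 1.499% and 1.41%, and FGFR1 reaches 10.3% with the label shRNA 1.

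FGFRL1, which binds FGFs but lacks the tyrosine kinase domain (ENSG00000127418.14, hg38 chromosome 4, 1009936 to 1026897), had 27.2 CPM in the control, 22.8 CPM with the label shRNA 1 and 22.5 CPM with the label shRNA 2. The pair of shRNA libraries were close to each other, at 22.7 ± 0.199 CPM (SD, n = 2), and divided by the control they gave 0.839 (0.725 to 0.969) and 0.828 (0.720 to 0.953). With FGFR3 lower in the sum, FGFRL1 per kilobase was 28.4% of the summed 4 receptor kinases in the control, 58.7% under the label shRNA 1 and 31.2% under shRNA 2. KLB, the beta-klotho co-receptor of the hormone-like FGFs, had 1, 6 and 6 counts and was under the minimum for testing. Its ratios of 6.06 (0.735 to 279) and 5.30 (0.643 to 244) leave its direction undetermined at this depth.

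FGF2, a broadly acting ligand that lacks a classical secretion signal (ENSG00000138685.12, hg38 chromosome 4, 122826708 to 122898236), gave 58.3 CPM in the control, 51.4 CPM with the label shRNA 1 and 61.2 CPM with the label shRNA 2. The shRNA libraries lay on opposite sides of the control, with ratios of 0.881 (0.800 to 0.971) and 1.05 (0.960 to 1.15). Of its exonic bases, 11.9% are overlapped on the opposite strand, mainly by NUDT6, so its level is uncertain if the reads were not strand-specific. FGFBP1, a secreted carrier that releases FGFs from the matrix (ENSG00000137440.4, hg38 chromosome 4, 15938740 down to 15935569), was the most abundant member at 255.7 CPM per kilobase in the control, or 347.6, 328.1 and 298.6 CPM in the control and under the labels shRNA 1 and shRNA 2. Its ratios of 0.944 (0.908 to 0.981) and 0.859 (0.827 to 0.893) are small and, with 4989 to 5339 counts in each library, lie outside counting error alone. FRS2, the docking adaptor (ENSG00000166225.8, hg38 chromosome 12, 69470349 to 69579789), had 474, 652 and 741 counts. The control had 30.9 CPM and the mean was 42.7 ± 0.192 CPM (SD, n = 2) over the shRNA libraries, and both lay above the control, with ratios of 1.39 (1.23 to 1.57) and 1.38 (1.23 to 1.55).

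Of the 9 genes, 8 passed the filter on low counts; KLB did not. At least 2-fold lower in both shRNA libraries was 1 of the 8, FGFR2, against 1.19% of 17801 tested genes, and since FGFR2 was chosen for this nothing is read from it. With the label shRNA 2 alone, FGFR2 was again the only member at least 2-fold lower (3.46% of tested genes) and 0 members were at least 2-fold higher (2.98%). With the label shRNA 1 alone, 2 members, FGFR2 and FGFR3, were at least 2-fold lower, as were 5.58% of tested genes, and 1 member, FGFR1, was at least 2-fold higher, as were 3.74%. Below the control in both libraries lay 5 of the 8 (27% of tested genes) and above it in both 2 of the 8 (28.2%). The counting interval of the ratio lay below 1 in both libraries for FGFR2, FGFR3, FGFRL1 and FGFBP1, 4 of the 8 (8.33% of tested genes), and above 1 in both for FRS2, 1 of the 8 (8.42%). FGFR2, whose fall chose the set, is in each count of members below the control. The interval also narrows as counts rise, as for FGFBP1, so a deep gene passes with a small ratio and nothing is read from these shares. The pair of ratios share the control library, so like signs are partly built in. The median log2 ratio of the 8 was -0.22 and -0.24, beside 0.01 and -0.0022 over all tested genes.

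**Figure D3:**
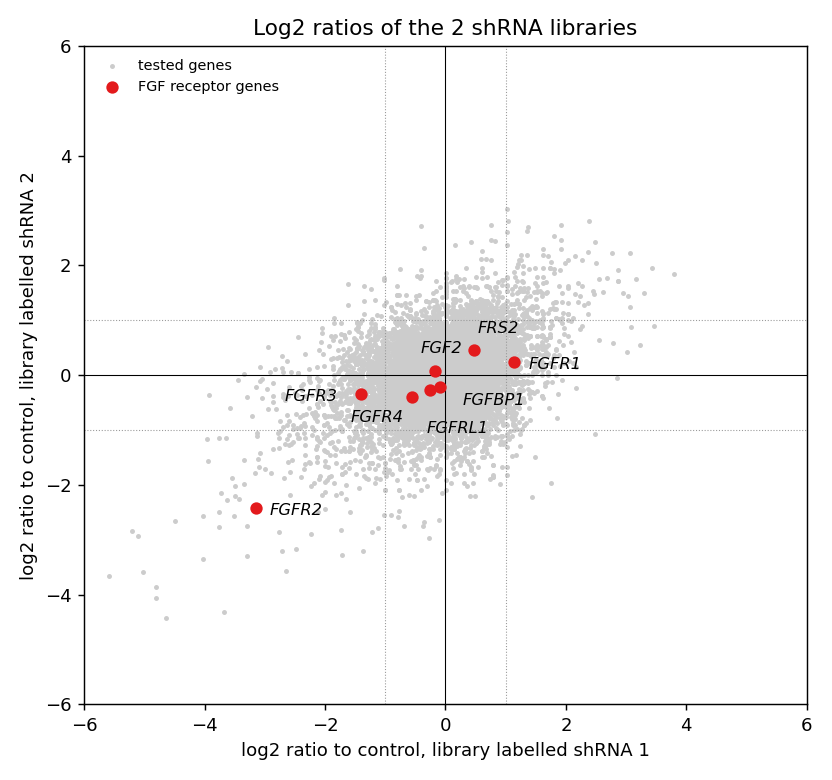
Log2 ratio to the control of each of 17801 tested genes (grey) and of the 8 tested FGF receptor genes (red), with the library labelled shRNA 1 on the horizontal and that labelled shRNA 2 on the vertical axis; dotted lines mark 2-fold. FGFR2 lies outside the dense cloud at -3.15 and -2.41, with some other genes further out, FGFR3 is 2-fold lower on 1 axis, and the common control gives the cloud part of its tilt.

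The genes whose pair of log2 ratios lay nearest to that of FGFR2 were sought among 9158 genes with at least 5 CPM in the control and at most 10% exonic overlap with other genes. By Euclidean distance over the 2 ratios from 3 libraries, they were C1orf21 (distance 0.32), the IGF-binding protein gene IGFBP5 (0.41), the keratin gene KRT23 (0.47), the neural adhesion molecule gene CNTN1 (0.52), the keratin pseudogene KRT16P6 (0.61) and the potassium channel gene KCNJ2 (0.62). CNTN1 was the most abundant of them, at 53.3 CPM in the control, 4.603 CPM with the label shRNA 1 and 13.0 CPM with the label shRNA 2. KRT23 stood at 6.51, 0.526 and 1.55 CPM. Reads of KRT16P6 cannot be separated with certainty from those of KRT16.

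The tested genes beside FGFR2 and FGFR3 mostly lay near or above the control. Within 1 Mb of FGFR2, 10 other genes were tested, with median log2 ratios of 0.21 and 0.28. Of these, 0 were at least 2-fold lower in both libraries (1.19% of all tested genes). Only 1, ATE1OSP, was at least 2-fold higher in both (0.977%). ATE1OSP had only 1, 5 and 12 counts, and its ratio for the label shRNA 1 was 5.05 (0.565 to 239), which includes 1. ATE1, which encodes an arginyltransferase, is the closest at 141963 bases and stood at 21.3, 28.5 and 25.8 CPM. Near FGFR3, 0 of 32 tested genes were at least 2-fold lower in both (1.19% of all tested genes), with medians of 0.12 and -0.05. At that share so few genes would mostly give 0, so nothing is read from either count of 0. LETM1 lies 2607 bases from FGFR3 and stood at 68.0, 100.5 and 50.9 CPM, so with the label shRNA 1 it lay above the control where FGFR3 lay below. TACC3 stood at 162, 174.6 and 147.2 CPM. FGFRL1 lies in the same window.

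**Figure D4:**
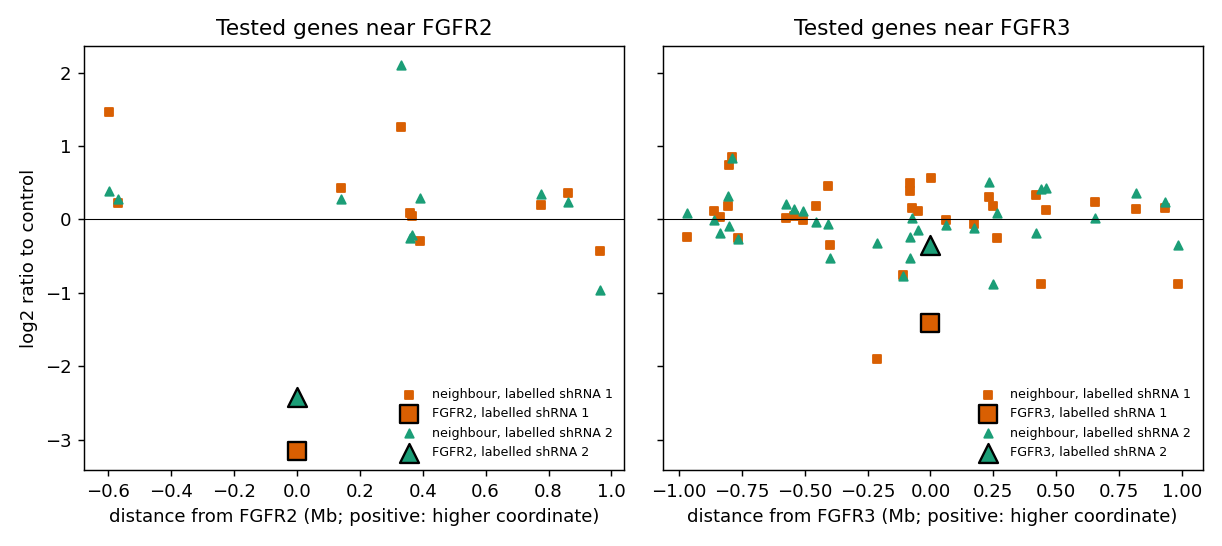
Log2 ratio to the control against distance in megabases for tested genes within 1 Mb of FGFR2 (left, 10 genes) and FGFR3 (right, 32 genes), with squares for the label shRNA 1 and triangles for the label shRNA 2; the receptor itself is outlined at 0. FGFR2 lies below all 10 of its neighbours in both libraries, while FGFR3 lies within the range of its neighbours in each. With the label shRNA 1 the only neighbour below FGFR3 (-1.41) is ENSG00000244459 (-1.91), which had 28, 6 and 25 counts. The next lowest there is MXD4, at -0.87.

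Across the rest of the pathway, 90 genes in 7 lists were examined and 66 passed the filter on low counts. The lists were chosen with earlier results of these data known, so how many of their genes lie above or below the control is a description. By edgeR's quasi-likelihood test with Benjamini-Hochberg adjustment over all tested genes, 0 were called lower and 0 higher, as was 0% of all tested genes, and the smallest adjusted p was 0.658, for FOS. At an unadjusted p under 0.05 there were 7 of the 66, beside 164 lower and 73 higher among all 17801 tested genes. DESeq2 called 0 of them, and edgeR's likelihood ratio test called 2 lower, EGR1 and FOS, among the 36 lower and 2 higher that it called over all tested genes. The test takes its spread from the pair of shRNA lines and assumes that the lone control varies like them.

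Other ligands were nearly absent. Of 17 further secreted FGF genes, 8 were at 0 in every library, including FGF7 and FGF10, the stromal ligands of the epithelial FGFR2 form. FGF1, which binds all FGF receptors, was the only one to pass the filter, at 2.99 CPM in the control, 6.71 CPM with the label shRNA 1 and 1.78 CPM with the label shRNA 2, on opposite sides of the control. The 4 intracellular homologous factors were all measured. FGF12 stood at 2.02, 2.17 and 4.54 CPM, and FGF13 at 5.92, 4.27 and 4.599 CPM.

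Among membrane partners, CDH2 and ANOS1 stood apart from the other 5 tested. CDH2 encodes N-cadherin, which binds FGFR1, and stood at 1.56 CPM in the control, 10.2 CPM with the label shRNA 1 and 4.71 CPM with the label shRNA 2. ANOS1 encodes anosmin, an extracellular modulator of FGFR1, and stood at 1.302, 7.69 and 4.02 CPM. For both genes the control was lowest and the label shRNA 1 highest, and edgeR's quasi-likelihood test called neither. FGFR1 was also highest with the label shRNA 1, but with the label shRNA 2 it was within counting error of the control. At least 2-fold higher in both shRNA libraries were these 2 of the 7, beside 0.977% of all tested genes. FLRT2 stood at 23.6, 27.9 and 27.7 CPM, and FGFBP3 stood at 2.08, 2.63 and 2.36 CPM.

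Heparan sulfate chains hold FGF on its receptor. Of 21 tested genes for their core proteins and enzymes, 10 lay below the control in both libraries and 2 above, beside 27% and 28.2% of all tested genes. Taken alone, the label shRNA 1 had 18 below the control and the label shRNA 2 had 11. GPC4, a glypican core protein, had 35.3 CPM in the control but 8.61 and 13.7 CPM with the shRNAs, ratios of 0.244 (0.200 to 0.296) and 0.388 (0.332 to 0.452), with adjusted p = 1 by edgeR. SDC4, a syndecan and the list's most abundant gene per kilobase, stood at 1205, 713.7 and 1154 CPM. HS3ST1, a sulfotransferase, stood at 17.2, 24.7 and 23.8 CPM, and HS6ST2 at 65.8, 54.1 and 41.0 CPM. GPC4 and the sulfatase gene SULF1, with 15, 0 and 7 counts, were the 2 of the 21 at least 2-fold lower in both, beside 1.19% of all tested genes. SULF2 stood at 51.4, 44.4 and 38.4 CPM.

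Targets and feedback inhibitors of FGF signalling mostly lay below the control. Of 16 tested, 14 were below it in both libraries and 0 above, beside 27% and 28.2% of all tested genes, with median log2 ratios of -0.56 and -0.45. Both ratios share the lone control library, and the list was chosen with earlier results of these data known, so this count is a description. These genes also report other receptors that signal through MAP kinases. EGR1 and FOS, immediate early transcription factors, were the 2 of the 16 at least 2-fold lower in both (1.19% of all tested genes), at 113.9, 34.5 and 11.6 CPM and at 28.4, 8.48 and 6.32 CPM. The sprouty genes, whose products restrain receptor signalling, gave 32.6, 18.4 and 21.5 CPM for SPRY1, 53.4, 39.8 and 31.4 CPM for SPRY2 and 53.1, 36.4 and 38.3 CPM for SPRY4. DUSP4, a MAP kinase phosphatase, gave 300.4, 173.5 and 170.5 CPM, and the ETS factor ETV5 gave 89.5, 38.2 and 56.3 CPM. The exceptions were SPRED1 and DUSP6, and DUSP6 stood at 78.1, 83.5 and 69.9 CPM and is overlapped on 40.5% of its exonic bases by an opposite-strand gene. edgeR's quasi-likelihood test called 0 of these, and at an unadjusted p under 0.05 there were 4 of the 16, read against the same 164 and 73 of 17801.

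Adaptors and splicing regulators had no member at least 2-fold apart from the control in both libraries. Of 10 adaptors other than FRS2 and 7 splicing regulators, 0 were at least 2-fold lower and 0 at least 2-fold higher in both libraries. As only 1.19% and 0.977% of all tested genes were, nothing is read from these counts of 0. SOS2, an exchange factor for RAS, stood at 28.0, 31.4 and 48.6 CPM and PLCG1 at 19.8, 21.1 and 10.6 CPM. ESRP1 and ESRP2, the epithelial factors that favour the IIIb forms, were well expressed in every library. ESRP1 stood at 296.5, 266.9 and 436.4 CPM and ESRP2 at 74.9, 95.5 and 88.0 CPM. MBNL1 stood at 170.7, 249.5 and 214.2 CPM, and 15.6% of its exonic bases are overlapped on the opposite strand.

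**Figure D5:**
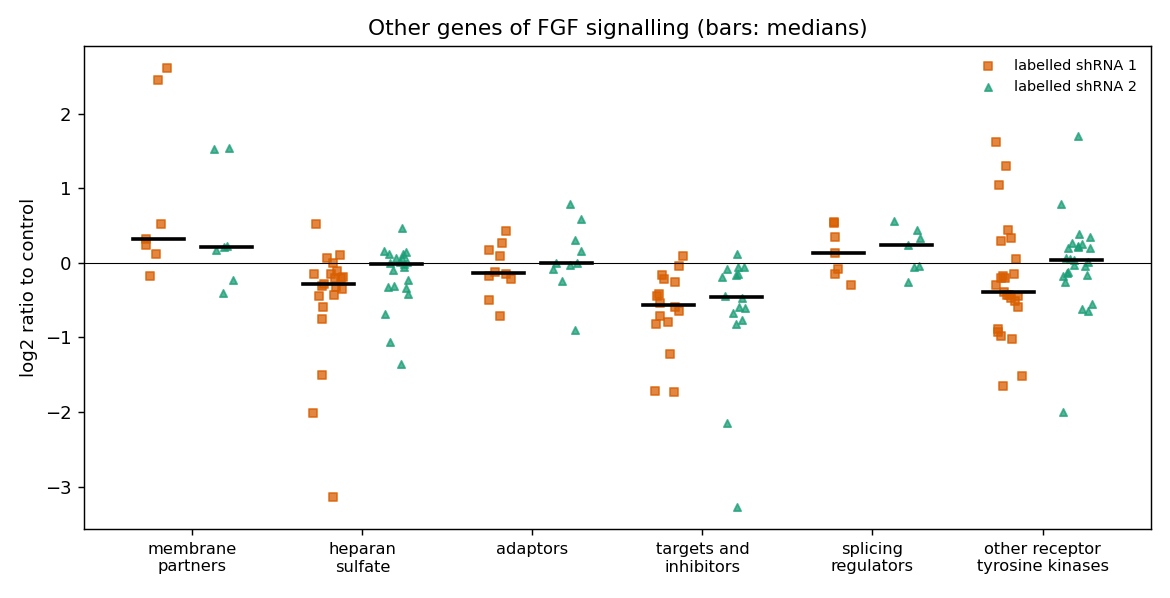
Log2 ratio to the control of each tested gene of 5 lists of the pathway and of the other receptor tyrosine kinases, with squares for the label shRNA 1, triangles for the label shRNA 2 and black bars for medians; horizontal scatter within a column has no meaning. The targets and inhibitors have medians of -0.56 and -0.45, and CDH2 and ANOS1 are the high points among the membrane partners.

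Of the other receptor tyrosine kinases, EGFR was the most abundant per kilobase of exon, at 180.8, 187.7 and 186.6 CPM per kilobase against 20.4, 7.66 and 15.98 for FGFR3. Of 25 other such kinases tested, ALK was the only one at least 2-fold lower in both libraries, at 1.302, 0.329 and 0.230 CPM. ALK had only 20, 5 and 4 counts, and the intervals of its ratios, 0.0741 to 0.693 and 0.0439 to 0.527, include changes under 2-fold. EPHB6 was the only one at least 2-fold higher, at 2.80, 7.04 and 9.37 CPM. That is 1 of 25 in each direction, beside 1.19% and 0.977% of all tested genes. ROR2 stood at 1.37, 0.395 and 1.21 CPM and MERTK at 10.9, 5.33 and 7.42 CPM, both lowest with the label shRNA 1. Of the 4 squamous markers with the widest mean log2 ratio, 3 gave 104.1, 12.2 and 38.9 CPM (SOX2), 68.3, 27.2 and 53.2 CPM (DSC3) and 94.6, 15.5 and 52.9 CPM (KRT17). These 3 were lowest with the label shRNA 1, as FGFR3 was. For FGFR2 the ratio between the shRNA libraries was 0.572 (0.293 to 1.07), an interval that includes 1. KRT6A, at 174.7, 90.1 and 51.4 CPM, was lowest with the label shRNA 2. The part of these markers in the receptor values was not tested.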

How the data were processed

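RNA counts per gene from 3 KYSE30 libraries were used. Per the file headers, the authors made the deposited raw counts with featureCounts 1.6.4, strand option 1, against an hg38 annotation; the tools and build listed per the submitters' processing notes differ (TopHat2, HTSeq, hg19). All 52179 identifiers shared with GENCODE 29 have the same coordinates there, so hg38 is given. The exon length per gene is another value the authors deposited.

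The members and lists were chosen with earlier results of these data known. In R 4.3.3 with edgeR 4.0.16, 17801 genes passed filterByExpr, and CPM were scaled by TMM (factors 0.993, 1.004 and 1.003). The quasi-likelihood test was adjusted by Benjamini-Hochberg at 0.05, with 1 residual degree of freedom; DESeq2 1.42.0 was an alternative. The test was tested on simulated data. There the control was made to vary like the shRNA lines, so that assumption about the lone control was not checked. Log2 ratios use a prior count of 2, and the log2 fold change of a gene is the mean of its pair of ratios. Ratios of counts have exact conditional intervals at 95%. Where no read was counted, the upper limit is 3 counts. Named were the 9 members, for each list up to 4 genes of 1 CPM or more by size of the mean log2 ratio, 6 genes nearest to FGFR2, and SNORD12B; other genes are named after their values were seen. Promoters came from RefSeq for 8 of the 9 members.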

Additional observations from a re-analysis of the deposited data

How the results depend on the processing

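No paired analysis was possible because the control line has 1 library and the labels pair no lines. Where the quasi-likelihood test called 0 genes lower and 0 higher, 37 and 4 were called with no filter beyond a count above 0, 36 and 2 by edgeR's likelihood ratio test, 14 and 1 by DESeq2, and 1 and 0 with at least 5 CPM in a library. At an unadjusted p under 0.05, edgeR's quasi-likelihood test had 164 lower and 73 higher. Genes at least 2-fold lower in both libraries numbered 212, but 1020 with no filter, 60 with at least 5 CPM and 616 to 994 with 1 shRNA library left out. Genes at least 2-fold higher numbered 174, but 468, 20 and 531 to 665 in the same order, and 89 with a prior count of 5. The mean log2 ratio kept its sign in every setting run for 8 of the 9 members, FGFR2 (-2.78) among them. KLB is also among the 8, but it was run only with 1 shRNA library left out. Both intervals of its ratios include 1, so its direction stays undetermined. The mean log2 ratio of FGF2, -0.06, lay at -0.18 to 0.07 with 1 shRNA library left out (0.0701 without replicate 1, a reversed sign). With no scaling factor FGFRL1 moved from -0.26 to -0.25 and FRS2 from 0.47 to 0.48, more than the SD between their shRNA libraries. Without division by gene length, FGFR1 made up 15.1% and FGFR3 78.2% of the 4 receptors on average in the shRNA libraries, and FGFR2 2.02% there and 8.72% in the control. With no filter, 2 ligands (0 with the filter) and 18 other receptor tyrosine kinases (11 with it) lay below the control in both libraries. Above it in both lay 1 feedback gene (0 with the filter). The 2 ligands, FGF5 and FGF19, had 1, 0 and 0 counts each, so their place rests on a single read. The share over all unfiltered genes was not computed, so nothing is read from these counts. Heparan sulfate genes below the control numbered 11 to 18 with 1 shRNA library left out, a setting chosen after seeing the data. Counts under 20 limit FGFR2 with the label shRNA 1, and KLB throughout.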

Other observations

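The receptors and the ligand below were named after their values were seen. CSF1R, the receptor for colony stimulating factor 1 and a marker of macrophages, was counted 268 times in the control, 238 times with the label shRNA 1 and 525 times with the label shRNA 2, while PTPRC, the pan-leukocyte marker, had 0, 0 and 1 counts. ROR1, a receptor for WNT5A, stood at 22.7 CPM in the control, 47.0 CPM with the label shRNA 1 and 23.3 CPM with the label shRNA 2, which like FGFR1 was highest with the label shRNA 1. FGF22, an epithelial FGF, had 1, 12 and 1 counts in the same order.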
